A study of Homo sapiens with 9 samples.

Results

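The 10 genes described here encode immediate early transcription factors of 3 families: FOS, FOSB, JUN, JUNB and JUND of AP-1, EGR1 and EGR2, and NR4A1, NR4A2 and NR4A3. They were taken by symbol from a table of 60675 genes. Their RNA was measured by RNA sequencing in MM.1S, an established human multiple myeloma line, that is, a tumour line of antibody-secreting plasma cells. Cells received epigallocatechin gallate (EGCG), a green tea polyphenol, at 0, 40 or 80 µM for 24 h. Each dose had 3 libraries, those at 0 µM are the control, and all groups come from the same line with no other agent named in the labels. The series asks how EGCG drives apoptosis of myeloma cells, and the question here is which of these genes recover at the higher dose.

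Immediate early genes are switched on within minutes of a growth factor, stress or receptor signal, without new protein synthesis, through factors such as SRF and CREB that already sit near their promoters. FOS and JUN proteins pair as AP-1 dimers. FOS and FOSB need a JUN partner, while JUN proteins can also pair among themselves. EGR proteins bind GC-rich DNA with zinc fingers. NR4A proteins are orphan nuclear receptors that act without a known natural ligand and respond mainly through their own level. Many of these RNAs carry AU-rich elements and decay fast. In B lineage cells these genes follow antigen receptor and cytokine signals, and NR4A1 and NR4A3 loss is linked to blood cancers in mice.

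Promoter sequence is shown for 5 of the 6 tested members with a single entry in RefSeq (build GRCh38.p14), to show a short motif they have in common. RefSeq promoter entries were found for 9 of the 10 members and not for NR4A2. The stretches run 5′ to 3′ on the gene's strand and end before the annotated start. FOS is shown over 196 bases and FOSB over 249, less than the 250 bases searched for motifs, and the others over 250. Capitals mark TGACG, the core letters of the cAMP response element bound by CREB and ATF factors, on either strand (CGTCA on the other), and in EGR1 also the CArG boxes bound by SRF. FOS lies at chr14:75278578-75278773 (plus strand), FOSB at chr19:45467746-45467994 (plus), JUNB at chr19:12791236-12791485 (plus), JUND at chr19:18281623-18281872 (minus) and EGR1 at chr5:138465229-138465478 (plus).
FOS: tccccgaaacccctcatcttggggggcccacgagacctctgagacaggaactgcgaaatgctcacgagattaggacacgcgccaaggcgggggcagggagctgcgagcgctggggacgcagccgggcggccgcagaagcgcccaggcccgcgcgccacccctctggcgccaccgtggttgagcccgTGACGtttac
FOSB: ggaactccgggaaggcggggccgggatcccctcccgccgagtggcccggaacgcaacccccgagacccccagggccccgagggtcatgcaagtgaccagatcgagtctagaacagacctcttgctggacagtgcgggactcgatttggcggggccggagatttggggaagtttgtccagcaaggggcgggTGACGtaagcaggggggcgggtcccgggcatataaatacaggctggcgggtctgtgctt
JUNB: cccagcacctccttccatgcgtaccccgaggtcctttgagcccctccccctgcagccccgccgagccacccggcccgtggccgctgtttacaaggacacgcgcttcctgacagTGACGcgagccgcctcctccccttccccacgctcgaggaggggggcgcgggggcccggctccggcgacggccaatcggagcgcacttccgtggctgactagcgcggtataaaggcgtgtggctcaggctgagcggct
JUND: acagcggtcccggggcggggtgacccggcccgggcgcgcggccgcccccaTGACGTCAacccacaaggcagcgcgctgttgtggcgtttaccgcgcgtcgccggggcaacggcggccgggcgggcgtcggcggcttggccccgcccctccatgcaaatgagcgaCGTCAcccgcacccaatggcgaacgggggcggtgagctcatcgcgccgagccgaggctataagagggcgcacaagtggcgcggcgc
EGR1: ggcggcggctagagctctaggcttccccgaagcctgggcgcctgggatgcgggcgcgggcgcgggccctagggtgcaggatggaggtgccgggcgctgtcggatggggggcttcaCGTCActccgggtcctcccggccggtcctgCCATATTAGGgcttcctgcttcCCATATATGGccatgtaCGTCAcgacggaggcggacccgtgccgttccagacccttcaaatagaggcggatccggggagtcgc

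TGACG was found in 6 of 6 tested members with 1 RefSeq entry, the 5 above and JUN, against 21.2% of 35116 promoters searched over the same 250 bases before the start. JUND holds the whole palindrome TGACGTCA, which 1.65% of promoters hold and which counts as TGACG on both strands, and a further TGACG. EGR1 holds TGACG at 2 places, 2 CArG boxes (1.16% of promoters) and 1 EGR motif, GCGNGGGCG (8.41% of promoters). No member's window holds the AP-1 motif TGANTCA (6.57% of promoters), and neither entry of NR4A1 holds any of the motifs searched, which also took in the NR4A monomer motif AAAGGTCA (1.05% of promoters). These are letter matches, not measured binding. NR4A3 holds TGACG at 4 places, and the 3 entries of EGR2 hold it at 0 to 2.

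Library totals ran from 12674490 to 16427343 counts, and 3 counts in 1 library correspond to 0.183 to 0.234 CPM (counts scaled to the TMM-adjusted library size). Of the 10 members 8 passed the filter on low counts, and EGR2 and NR4A3 did not. All 8 plasma cell markers were detected and summed to 4336 to 4883 CPM. Within that sum IRF4 was called higher at both doses. At 80 µM SLAMF7 was also called higher and CD38 and MZB1 lower, where 34.9% of all genes were called. SDC1 averaged 928, 445 and 586 CPM at the 3 doses without a call. Markers of mature B cells summed to at most 0.234 CPM, with CD22 at 0. In control libraries the 4 T and NK cell markers summed to 4.29 to 5.28 CPM. At 40 and 80 µM they summed to 2.55 to 3.91 and 1.56 to 2.42 CPM. CD3D and NKG7 were at 0, and CD3E, called lower at 80 µM, averaged 4.17, 3.04 and 1.89 CPM at the 3 doses. The 4 monocyte markers summed to 0.536 to 1.08, 0.856 to 1.24 and 2.42 to 2.90 CPM. Of the monocyte markers ITGAM, called higher at 80 µM, averaged 0.167, 0.457 and 1.85 CPM at the 3 doses and CD14 0.412, 0.419 and 0.391 CPM. The 4 stromal markers summed to 0.892 to 3.90 CPM over all libraries, with COL1A2 at 0. Mitochondrially encoded genes took 7.31 to 8.89% of counts in control libraries, 8.39 to 12% at 40 µM and 9.80 to 10.9% at 80 µM. Within that total, the ribosomal RNA MT-RNR2 averaged 6507 CPM in the control and 37752 CPM at 80 µM, whereas MT-ND3, MT-ND6, MT-CO2 and MT-CO3 were called lower at 80 µM. The part of these shifts in the results was not tested, except that scaling without mitochondrially encoded genes ended no call of a member. The labels do not state that replicates were separate cultures, so p-values measure only the spread between these libraries, which may be technical. As in any bulk sample, fewer cells of a type and less RNA per cell cannot be told apart.

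At 40 µM, NR4A1, FOS, NR4A2 and JUNB fell, and none of the 8 tested members rose. NR4A1 and FOS were left with 15.4% and 16.7% of their control level, NR4A2 with 34.5% and JUNB with 51.9%. At 80 µM these genes were still below the control, at 44.2%, 26.8%, 51.6% and 67.4%, and FOSB and JUND were called lower as well. NR4A1 and FOS were the members called higher at 80 than at 40 µM, though the changes of all 8 tested members between the doses were positive. That of JUN was 0.05 ± 1.41 on the log2 scale and changed sign in 4 of 16 alternative analyses. The call of FOS was lost in 10 of 17 alternative analyses. FOS regained 12.1% of the CPM lost, less than JUNB (32.3%) and NR4A2 (26.1%), which were not called. No member called lower at 40 µM returned to a level that overlapped its control. EGR1, which was not called in any comparison, averaged 1.58, 0.614 and 1.29 CPM at 0, 40 and 80 µM. Its libraries overlapped the control at both doses.

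By the quasi-likelihood test of edgeR (Benjamini-Hochberg adjusted p under 0.05), 2.3% of all 15982 genes tested were called at 40 µM, 1.49% higher and 0.813% lower, against 0 and 4 of the 8 members. The members' median log2 fold change was -1.17, beside 0.01 for all genes, and all 8 were negative. The sign of JUN (-0.34 ± 1.41) changed in 4 of 16 alternative analyses. In 6 members every library at 40 µM lay under every control library, which held for 11.5% of all genes. Among the 130 genes called lower, NR4A1 had the largest fall, FOS the next, and NR4A2 and JUNB ranked 13 and 41. At 80 µM 34.9% of genes were called, 17.5% lower and 17.4% higher, against 6 and 0 of the members, with a median of -0.67 beside 0.00 for all genes (-0.0013). The 6 members called at 80 µM were also those without overlap with the control, as were 25.3% of all genes in that direction. Between 40 and 80 µM 23% of genes were called, 10.9% higher and 12.1% lower, against 2 and 0 members, and the median was 0.47 beside -0.01 for all genes. All 40 µM libraries lay under all 80 µM libraries for NR4A1 and NR4A2, and for 20.1% of all genes. The comparisons of each dose with the control share the control libraries, and those at 40 µM enter both the fall and the recovery, so the 3 sets of values are not independent. As members and the gene lists below were chosen with earlier results of these data known, their counts beside all genes are a description.

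**Figure D1:**
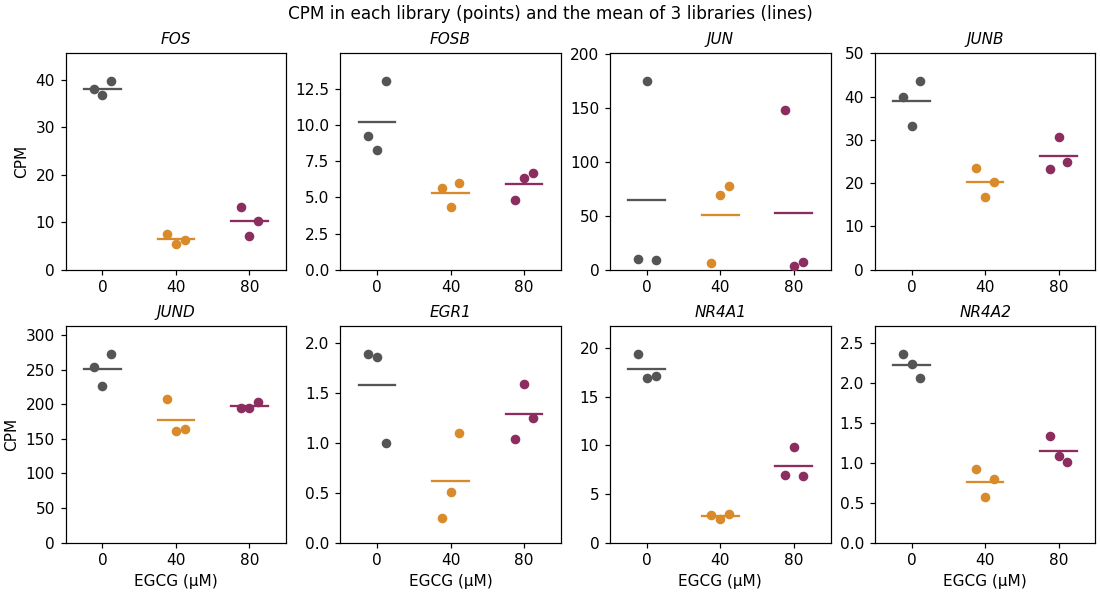
CPM (vertical axes, each starting at 0) of the 8 tested members at 0, 40 and 80 µM EGCG, with 1 point per library and a line at the mean of 3. The 3 NR4A1 libraries at 40 µM (2.45 to 2.99) lie under those at 80 µM (6.86 to 9.81), which lie under the control (17.0 to 19.4), while JUN spans 3.57 to 175 with no order by dose.

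NR4A1 (ENSG00000123358, GRCh38 chromosome 12, 52022832 to 52059507), an orphan receptor known in lymphocytes as a reporter of antigen receptor signalling and as a factor in cell death, had the deepest fall of all genes called lower at 40 µM. It measured 19.4, 17.0 and 17.1 CPM in control libraries, 2.81, 2.45 and 2.99 CPM at 40 µM and 6.92, 9.81 and 6.86 CPM at 80 µM. The doses did not overlap, and 80 µM lay between the other two. The log2 fold change was -2.69 ± 0.19 (SE) at 40 µM (adjusted p = 7.89e-05, edgeR) and -1.17 ± 0.17 at 80 µM (adjusted p = 0.000609, edgeR). From 40 to 80 µM it rose by 1.52 ± 0.19 (adjusted p = 0.000717, edgeR), which regained 34% of the CPM lost (27.5 to 37.3% when 1 library was left out). These 3 calls held in each of the 17 alternative analyses, with adjusted p for the rise up to 0.00361. AC025259.3, a gene on the opposite strand that shares 754 exonic bases with NR4A1, had 3 to 7 counts in control libraries and 0 in those of both doses. Whether the counting used strand is not given in the labels, so reads of this pair cannot be told apart.

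NR4A2 (ENSG00000153234, chromosome 2, 156324432 to 156342348), a receptor of the same family best known from dopamine neurons, was far less abundant. Its CPM was 2.36, 2.23 and 2.07 in control libraries, 0.917, 0.576 and 0.802 at 40 µM and 1.34, 1.08 and 1.01 at 80 µM, from 8 to 35 counts per library. The doses again did not overlap. It fell by 1.52 ± 0.28 on the log2 scale at 40 µM (adjusted p = 0.0224, edgeR) and by 0.95 ± 0.27 at 80 µM (adjusted p = 0.0194, edgeR). The difference of 0.57 ± 0.30 between the doses did not pass (adjusted p = 0.196, edgeR). The call at 40 µM was lost in 7 of 17 alternatives: with only the 6 libraries compared (adjusted p = 0.0609), with a replicate block (0.0545), without control replicate 1, 2 or 3 (0.0888, 0.0584 and 0.0608) and without 40 µM replicate 2 or 3 (0.0807 and 0.0788). The call at 80 µM was lost with DESeq2 (0.0656), without control replicate 1 or 2 (0.0695 and 0.0513) and without 80 µM replicate 2 or 3 (0.0726 and 0.0744).

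NR4A3 (ENSG00000119508, chromosome 9, 99821855 to 99866891), the remaining receptor of the family, was near the limit of detection. It had 3, 0 and 0 counts in control libraries, 1, 1 and 2 at 40 µM and 9, 6 and 3 at 80 µM. The ratio of scaled counts at 80 µM to the control was 5.91, with an exact binomial 95% interval of 1.72 to 31.3 that covers counting error only. Without a filter on low counts, its log2 fold change at 80 µM did not pass (adjusted p = 0.125, edgeR). NR4A3 thus had more counts at 80 µM than in the control, unlike NR4A1 and NR4A2, on 18 counts in all over 3 libraries.

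FOS (ENSG00000170345, chromosome 14, 75278774 to 75282230), the classical inducible partner of JUN proteins, showed the second deepest fall. It measured 37.9, 36.7 and 39.7 CPM in control libraries, 7.46, 5.33 and 6.34 CPM at 40 µM and 13.2, 7.20 and 10.2 CPM at 80 µM. Both doses lay far under the control. The lowest library at 80 µM lay under the highest at 40 µM, so the doses overlapped. FOS fell by 2.57 ± 0.21 at 40 µM (adjusted p = 0.000268, edgeR) and by 1.90 ± 0.21 at 80 µM (adjusted p = 0.000103, edgeR), and both calls held in all 17 alternatives.

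The rise of FOS from 40 to 80 µM was 0.67 ± 0.21 (adjusted p = 0.0451, edgeR) and regained 12.1% of the CPM lost (7.34 to 16.9% when 1 library was left out, the lowest without 80 µM replicate 1). This call was lost in 10 of 17 alternatives. It was lost without a filter on low counts (adjusted p = 0.0936), with limma-voom (0.0777) and with only the 6 libraries compared (0.0874). It was also lost without control replicate 1, 2 or 3 (0.0617, 0.0577 and 0.0585), without 40 µM replicate 2 or 3 (0.138 and 0.0959) and without 80 µM replicate 3 (0.0978). Without 80 µM replicate 1, the highest of its dose, the rise came to 0.43 (adjusted p = 0.162).

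FOSB (ENSG00000125740, chromosome 19, 45467995 to 45475179), a FOS relative that also accumulates under repeated stimulation in neurons, measured 9.24, 8.26 and 13 CPM in the control. It measured 5.62, 4.32 and 5.98 CPM at 40 µM and 4.83, 6.31 and 6.70 CPM at 80 µM. Both doses lay under the control without overlap and overlapped each other. The difference of -0.94 ± 0.22 at 40 µM did not pass (adjusted p = 0.0599, edgeR) and passed with DESeq2 (0.0105). At 80 µM FOSB fell by 0.77 ± 0.22 (adjusted p = 0.0209, edgeR), a call lost without control replicate 3 (0.0730) or 80 µM replicate 1 or 2 (0.0737 and 0.0516). The doses differed by 0.16 ± 0.23 (adjusted p = 0.641, edgeR).

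JUNB (ENSG00000171223, chromosome 19, 12791496 to 12793315), a JUN protein that myeloma and lymphoma cells often need for growth, measured 40.0, 33.2 and 43.6 CPM in the control. It measured 23.6, 16.8 and 20.2 CPM at 40 µM and 23.2, 30.7 and 24.8 CPM at 80 µM. No treated library reached the control, and the doses overlapped in 1 pair of libraries. JUNB fell by 0.95 ± 0.17 at 40 µM (adjusted p = 0.0195, edgeR) and by 0.57 ± 0.17 at 80 µM (adjusted p = 0.0232, edgeR). Between the doses it differed by 0.38 ± 0.17, which did not pass (adjusted p = 0.136, edgeR). The call at 40 µM was lost with a replicate block (0.0517), without control replicate 1 or 3 (0.0755 and 0.0711) and without 40 µM replicate 2 or 3 (0.0653 and 0.0744), and that at 80 µM without control replicate 1 or 3 (0.0703 and 0.0704) or 80 µM replicate 1 or 3 (0.0807 and 0.0836). HOOK2, on the opposite strand with 259 shared exonic bases, had 91 to 184 counts per library and passed in none of the 3 comparisons. Its log2 fold changes were -0.36 at 40 µM, 0.11 at 80 µM and 0.46 between the doses (adjusted p = 0.27, 0.65 and 0.071, edgeR). With the strand setting not given, reads in the shared bases cannot be told apart.

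JUND (ENSG00000130522, chromosome 19, 18279760 to 18281622), the JUN protein that is expressed steadily in most cells, was the most abundant member. It measured 254, 227 and 273 CPM in control libraries, 207, 161 and 165 CPM at 40 µM and 194, 195 and 204 CPM at 80 µM. Treated libraries lay under the control, and the doses overlapped. The difference at 40 µM was -0.50 ± 0.12 (adjusted p = 0.0576, edgeR), and JUND fell by 0.35 ± 0.12 at 80 µM (adjusted p = 0.0427, edgeR). The call at 80 µM was lost in 9 of 17 alternatives: without a filter (0.0749), with upper-quartile factors (0.0508), with a replicate block (0.0572), without control replicate 1 or 3 (0.117 and 0.104), without 40 µM replicate 3 (0.0593) and without 80 µM replicate 1, 2 or 3 (0.104, 0.130 and 0.0980). At 40 µM it passed with upper-quartile factors (0.0490), scaling without mitochondrially encoded genes (0.0497), DESeq2 (0.00956) and without 40 µM replicate 1 (0.0219).

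EGR1 (ENSG00000120738, chromosome 5, 138465490 to 138469315), a zinc finger factor induced by ERK signalling, was low throughout. It measured 1.89, 1.86 and 0.995 CPM in control libraries, 0.245, 0.504 and 1.09 CPM at 40 µM and 1.04, 1.59 and 1.25 CPM at 80 µM. All 3 doses overlapped. The differences of -1.39 ± 0.48 at 40 µM, -0.29 ± 0.44 at 80 µM and 1.10 ± 0.49 between the doses did not pass (adjusted p = 0.155, 0.651 and 0.135, edgeR). Without 40 µM replicate 3, the highest of its dose, EGR1 was called higher at 80 than at 40 µM, by 1.8 (adjusted p = 0.0358). EGR2 (ENSG00000122877, chromosome 10, 62811996 to 62919900), a relative with roles in lymphocyte tolerance and myelination, had 2, 3 and 1 counts in control libraries, 0, 3 and 5 at 40 µM and 3, 4 and 20 at 80 µM. Of its 27 counts at 80 µM, 20 lay in replicate 3, and the ratio of 4.43 to the control (exact binomial 95% interval 1.79 to 13.1) covers counting error only.

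**Figure D2:**
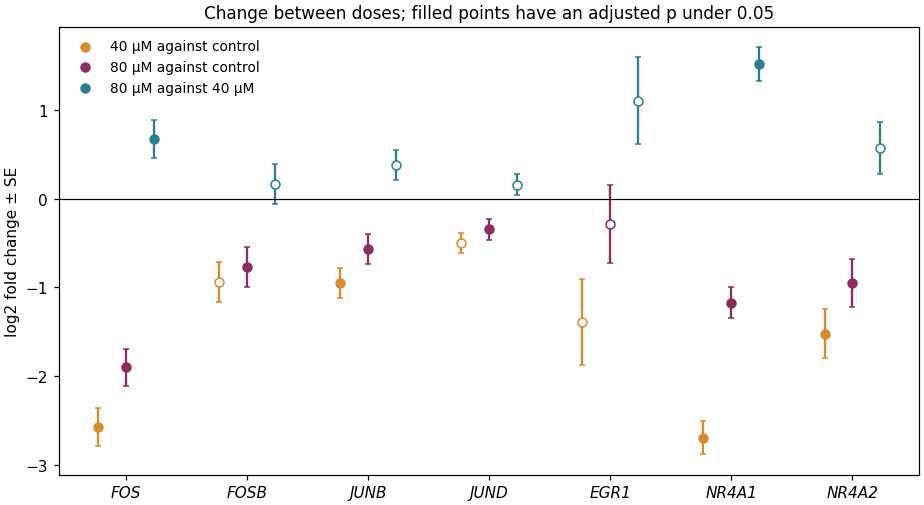
Log2 fold change with its standard error (vertical axis) for 7 members in the comparisons of 40 µM with control, 80 µM with control and 80 µM with 40 µM, where filled points passed an adjusted p of 0.05 in edgeR and open points did not. NR4A1 and FOS are filled in all 3 comparisons, and JUN, whose standard errors reach 1.41 and more, is left out.

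The turn between the doses was tested as the mean of control and 80 µM minus 40 µM on the log2 scale. A positive value means that 40 µM lay under that mean, which can hold even where 80 µM lay lower still. NR4A1 had a turn of 2.10 ± 0.17 (adjusted p = 0.00280, edgeR) and FOS of 1.62 ± 0.19 (adjusted p = 0.0143, edgeR), against 0.294% of all genes, 0.163% in this direction. The values of the other members did not pass, with NR4A2 at 1.04 (adjusted p = 0.0851), EGR1 at 1.24 (0.168), JUNB at 0.66 (0.0738), FOSB at 0.55 (0.177), JUND at 0.33 (0.139) and JUN at 0.20 (0.948, all edgeR). The turn of FOS was lost without 40 µM replicate 2 (adjusted p = 0.0656), and that of JUNB passed with DESeq2 (0.00561). A turn counts a deep fall at 40 µM even where little is regained, as for FOS.

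Among all tested genes, 14, or 0.0876%, were called both lower at 40 µM and higher again from 40 to 80 µM. NR4A1 and FOS were 2 of them. The others were DNAL1, ZNF607, DDIT4, RHOB, SMPD1, HECW1, ZNF703, UVSSA, ZFP36L1, CCDC71L, ITGAL and PNPLA2. Of the 14, 5 were called against the control at 80 µM, NR4A1, FOS, the mTOR inhibitor DDIT4 and the small GTPase RHOB below it and UVSSA, a DNA repair factor, above it. JUNB had regained 32.3% of the CPM lost and NR4A2 26.1%, without passing the test of the rise. When 1 library was left out, the shares ran from 20.3 (without 80 µM replicate 2) to 40.3% for JUNB and from 19.5 to 30.6% for NR4A2.

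Levels between genes were compared as CPM per kilobase of merged exons. In the control the order was JUND at 135 ± 12.3, JUNB at 21.4 ± 2.90, JUN at 18.3 ± 27.0, FOS at 11.8 ± 0.452, NR4A1 at 2.44 ± 0.186, FOSB at 1.83 ± 0.452, NR4A2 at 0.560 ± 0.0373, EGR1 at 0.504 ± 0.162, EGR2 at 0.0393 ± 0.0200 and NR4A3 at 0.0107 ± 0.0185 (SD, n = 3). JUN overlapped JUNB and FOS, NR4A1 overlapped FOSB, NR4A2 overlapped EGR1 and EGR2 overlapped NR4A3. The JUN level rests on 3540 bases of its 1 transcript, whereas the deposited FPKM imply 6109 bases. Whether the region counted was longer, or overlapping exons entered the length more than once, was not tested. Of 8523 genes compared, 55.0% had an implied length within 2% of their summed distinct exons. At 40 µM FOS, at 1.97 ± 0.329, still lay above FOSB, at 0.956 ± 0.157, whereas NR4A1, at 0.377 ± 0.0379, had dropped under FOSB. At 80 µM NR4A1 and FOSB stood at 1.08 ± 0.231 and 1.07 ± 0.177.

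Without JUN, the summed level of FOS, FOSB, JUNB and JUND was 170 ± 16.1 CPM per kilobase in control libraries, 109 ± 15.8 at 40 µM and 125 ± 2.71 at 80 µM. JUND made up 79.4 ± 0.263% of this sum in control libraries, 87.2 ± 0.965% at 40 µM and 85.1 ± 1.09% at 80 µM, with no overlap between the doses. FOS made up 6.96 ± 0.415%, 1.8 ± 0.118% and 2.54 ± 0.789%, and JUNB 12.6 ± 0.555%, 10.1 ± 0.720% and 11.5 ± 1.69% (SD, n = 3). An exact two-sided permutation test of 3 libraries against 3 cannot go below p = 0.1, so the shares are given as a description. RNA shares do not measure which AP-1 dimers were present.

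**Figure D3:**
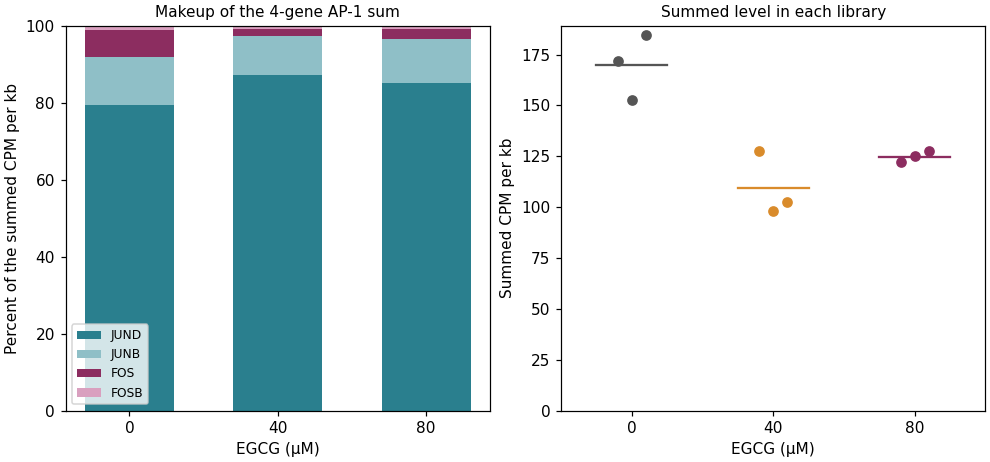
Left, mean percent of the summed CPM per kilobase held by JUND, JUNB, FOS and FOSB at 0, 40 and 80 µM EGCG; right, the summed level in each library (points) with the mean of 3 (lines). JUND holds 79.4%, 87.2% and 85.1% of the sum, and the summed level is lower at both doses than in every control library.

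JUN (ENSG00000177606, chromosome 1, 58780788 to 58784327), the founding JUN protein, could not be ordered by dose. It measured 9.65, 175 and 9.42 CPM in control libraries, 6.54, 69.2 and 77.9 CPM at 40 µM and 148, 3.57 and 7.25 CPM at 80 µM. Control replicate 2, 40 µM replicates 2 and 3 and 80 µM replicate 1 were high and the other 5 libraries low, so that libraries of 1 dose differed 18.6-fold, 11.9-fold and 41.6-fold. The high libraries hold 961 to 2351 counts. The log2 fold changes of -0.34 ± 1.41 at 40 µM, -0.29 ± 1.41 at 80 µM and 0.05 ± 1.41 between the doses did not pass (adjusted p = 0.918, 0.895 and 0.983, edgeR). Leaving out 1 library moved them from -0.88 to 2.42, from -3.60 to 2.48 and from -3.26 to 0.62. Without control replicate 2 they were 2.42 at 40 µM and 2.48 at 80 µM, and without 80 µM replicate 1 they were -3.60 at 80 µM and -3.26 between the doses. The sign also changed without 40 µM replicate 1 (0.19 at 40 µM and -0.48 between the doses) and without 80 µM replicate 2 or 3 (0.28 and 0.25 at 80 µM).

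The within-dose SD of log2 CPM of JUN was 2.44, which ranks 7 among the 10848 genes that averaged 5 CPM or more, whose median is 0.183. The 10 genes with the largest spread include the read-through genes ISY1-RAB43 and LY75-CD302. FOS and FOSB, by contrast, had 0.288 and 0.278. JUNB, JUND and FOS each kept their control libraries above all treated ones. Within each dose, however, JUNB and JUND were lower in the libraries where JUN was high. In control replicate 2, 40 µM replicates 2 and 3 and 80 µM replicate 1, JUNB measured 33.2, 16.8, 20.2 and 23.2 CPM. JUND measured 227, 161, 165 and 194 CPM there, the last beside 195 CPM in 80 µM replicate 2. FOS and FOSB did not hold to this order at every dose. The profiles most like that of JUN over the 9 libraries were those of MRPL42, a mitochondrial ribosomal protein gene (Pearson r = 0.954), MEN1, which encodes menin, a nuclear protein known to bind JUND (0.953), and the proteasome gene PSMD7 (0.909). In MRPL42 the SD was 18.3 CPM around a control mean of 31.3 CPM, and in MEN1 13.1 around 46.4 CPM. What the high libraries share was not tested.

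**Figure D4:**
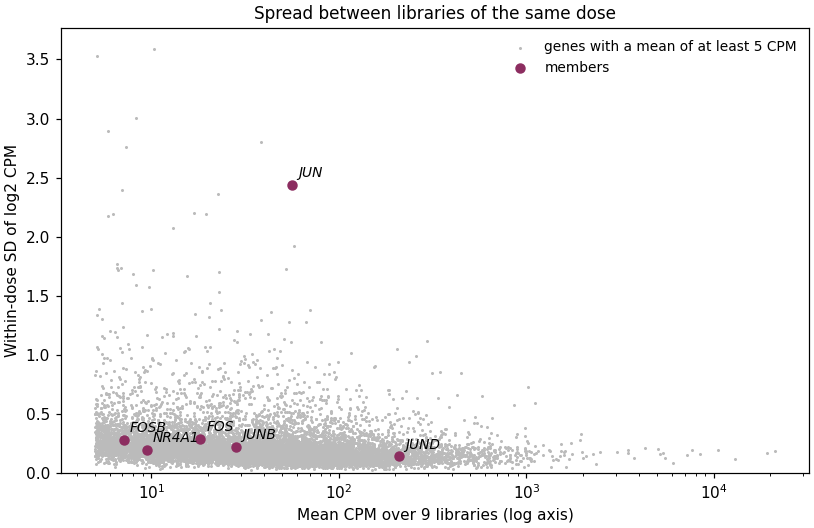
Within-dose SD of log2 CPM (vertical axis) against mean CPM over 9 libraries (horizontal log axis) for the 10848 genes that averaged 5 CPM or more (grey), with the members of that level marked. JUN stands at 2.44, while FOS stands at 0.288 near the body of genes, whose median is 0.183.

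The other profiles most like each member's were sought among 10541 genes by Pearson's r over the 9 libraries, as a description. All libraries share the dose groups, and the genes were picked as the highest of many. FOS was nearest to WASF1, an actin regulator (0.974), BTG2, an antiproliferative gene (0.968), and DUSP1, a MAP kinase phosphatase (0.967). NR4A1 was nearest to the ubiquitin ligase gene HECW1 (0.981), EWSR1 (0.967) and RHOB (0.947), of which HECW1 and RHOB are among the 14 genes called to recover. NR4A2 was nearest to DDIT4 (0.957), WASF1 (0.944) and the cell cycle inhibitor CDKN1B (0.942). JUNB was nearest to the protease gene ADAM8 (0.963), TBCC (0.958) and NPIPA9 (0.953), the last from a family of near-identical copies. JUND was nearest to ANKRD13D (0.966), PGLS (0.965) and COASY (0.963), FOSB to BMP8A (0.988), ZNF335 (0.974) and PGAP6 (0.969), and EGR1 to TTN (0.950), COLCA1 (0.940) and LAMC1 (0.904).

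Genes that act upstream of the members were measured as well. None of 17 genes of the ERK, JNK and p38 cascades was called at 40 µM, beside 2.3% of all genes. At 80 µM 3 rose and 2 fell (median log2 fold change 0.18). There 17.4% of all genes were called higher and 17.5% lower, so the counts at both doses are near the background. MAP2K6, a kinase that activates p38, fell from 5.93 to 1.53 CPM at 80 µM (-1.95 ± 0.25, adjusted p = 0.000244, edgeR), and the RAF kinase gene BRAF rose from 42.5 to 81.4 CPM (0.94 ± 0.21, adjusted p = 0.00648). None of 6 genes of SRF and its partners was called at 40 µM and 1 fell at 80 µM, counts also near that background. The SRF coactivator gene MRTFA fell at 80 µM (-0.50 ± 0.14, adjusted p = 0.0205, edgeR), a call lost without control replicate 3 (0.0549) or 80 µM replicate 1 or 2 (0.0739 and 0.0677).

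Of 8 CREB family and coactivator genes none was called at 40 µM, beside 2.3% of all genes, and 4 rose at 80 µM (median 0.52), beside 17.4%. CREM, which encodes activators and repressors of the cAMP response, rose from 6.47 to 13.3 CPM (1.04 ± 0.18, adjusted p = 0.00149, edgeR). The acetyltransferase genes EP300 and CREBBP rose by 0.70 ± 0.13 and 0.52 ± 0.11 at 80 µM (adjusted p = 0.00245 and 0.00466, edgeR).

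Of 11 tested AP-1 partners and related bZIP factors none was called at 40 µM, beside 2.3% of all genes. At 80 µM 6 rose and 1 fell (median 0.73), beside 17.4% and 17.5% of all genes. JDP2, a repressor that pairs with JUN, rose from 0.684 to 4.13 CPM (2.55 ± 0.36, adjusted p = 0.000436, edgeR). FOSL2, a FOS relative, rose from 18.5 to 35.1 CPM (0.92 ± 0.14, adjusted p = 0.000607), and MAFG, a small MAF protein, fell from 108 to 54.2 CPM (-0.996 ± 0.144, adjusted p = 0.000532, both edgeR). ATF3, a stress-induced bZIP factor, rose from 27.2 CPM at 40 µM to 99.6 CPM at 80 µM (1.87 ± 0.48, adjusted p = 0.0195, edgeR), a call lost without 40 µM replicate 1 or 3 (0.0654 and 0.0570) or 80 µM replicate 3 (0.0651). RXRA, the 1 tested nuclear receptor partner of NR4A1 and NR4A2, rose at 80 µM (0.77 ± 0.24, adjusted p = 0.0279, edgeR), a call lost without control replicate 1, 2 or 3 (0.0574, 0.0513 and 0.104) or 80 µM replicate 2 or 3 (0.0797 and 0.0583). Neither of the 2 tested genes among other EGR genes and their NAB corepressors was called at either dose, beside 2.3% and 34.9% of all genes.

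Of 19 other immediate early genes tested, 5 fell and none rose at 40 µM (median -0.36), beside 0.813% and 1.49% of all genes, and 9 fell and 1 rose at 80 µM (median -0.51), beside 17.5% and 17.4%. DUSP1 fell from 143 ± 12.5 to 37.9 ± 2.24 CPM at 40 µM (-1.91 ± 0.11, adjusted p = 7.35e-05, edgeR) and stayed at 40.0 ± 3.11 CPM at 80 µM. KLF2, a factor of lymphocyte quiescence, fell from 307 to 157 CPM at 40 µM (-0.96 ± 0.09, adjusted p = 0.000569), and BTG2 from 492 to 284 CPM (-0.79 ± 0.11, adjusted p = 0.00434, both edgeR). PPP1R15A, which encodes the stress-induced phosphatase subunit GADD34, went the other way, from 134 CPM at 40 µM to 496 CPM at 80 µM (1.89 ± 0.13, adjusted p = 5.21e-05, edgeR). From 40 to 80 µM 2 of the 19 rose and 2 fell, beside 10.9% and 12.1% of all genes, among the latter KLF10 (-0.98 ± 0.11, adjusted p = 0.000508) and the phosphatase gene DUSP2 (-1.11 ± 0.15, adjusted p = 0.00102, both edgeR).

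Of 7 genes for proteins that bind AU-rich elements, and so help set the decay of such RNAs, 2 fell at 40 µM and 3 at 80 µM (medians -0.16 and -0.33), beside 0.813% and 17.5% of all genes. ZFP36L2, which promotes decay, fell from 663 to 336 CPM at 40 µM (-0.98 ± 0.09, adjusted p = 0.000344, edgeR). HNRNPD fell from 361 to 242 CPM at 80 µM (-0.58 ± 0.11, adjusted p = 0.00205, edgeR). Of 14 textbook AP-1 and EGR targets 7 were tested, and 1 rose at 40 µM and 2 rose and 1 fell at 80 µM (medians 0.04 and -0.03), beside 1.49% of all genes higher at 40 µM and 17.4% higher and 17.5% lower at 80 µM. The filament gene VIM rose from 267 to 490 CPM at 40 µM (0.87 ± 0.14, adjusted p = 0.0105, edgeR) and TGFB1, which encodes a cytokine, fell by 0.73 ± 0.16 at 80 µM (adjusted p = 0.00550, both edgeR).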

How the data were processed

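The authors deposited a single table, which per the file headers holds counts and FPKM. HISAT2, SAMtools 1.3.1, CASAVA 1.8, edgeR and GRCh38 are listed without order in the submitters' processing notes. Annotation release, counting program and strand setting were not given in the sources used here. Deposited count values are whole numbers without normalization. The deposited FPKM values entered no test, because the gene length they imply was a median of 1.65 times the merged exons of GENCODE 29 in 8523 genes. It was 2.70 times for FOS and 1.73 times for JUN. Levels were set per kilobase of merged exons instead.

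Libraries were scaled by TMM after filterByExpr (15982 genes kept). All 9 libraries were fitted with dose as the factor by edgeR 4.0.16 in R 4.3.3 (quasi-likelihood test, Benjamini-Hochberg adjustment over all genes, threshold 0.05, 6 residual degrees of freedom), and the script was tested on simulated data. No 2 replicates were copies. SE is the log2 fold change over the square root of F. Named genes were all members, called list genes with the smallest p (at most 3 per list and comparison) and the 3 nearest profiles per member. Members and lists were chosen with earlier results of these data known. Alternatives were DESeq2 1.42.0, limma-voom (limma 3.58.1), RLE and upper-quartile factors, no filter, scaling without mitochondrially encoded genes, 6-library fits, a replicate block and leaving out each library.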

Additional observations from a re-analysis of the deposited data

How the results depend on the processing

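The directions of FOS, FOSB, JUNB, JUND, EGR1, NR4A1 and NR4A2 held in all comparisons under all alternatives run. Members lower at 40 µM numbered 4 and 2 with a replicate block. Members higher at 80 than at 40 µM, and those also lower at 40 µM, numbered 2, and 1 without a filter, with limma-voom and with only the 6 libraries compared. When 1 library was left out, the counts ran from 2 to 5 (lower at 40 µM), 3 to 6 (changed at 80 µM), 1 to 2 (higher at 80 than at 40 µM), 1 to 2 (lower and higher again) and 1 to 2 (turn). JUN turned in sign with limma-voom (0.35 at 40 µM, -1.07 between the doses, turn -0.71) and with the replicate block (0.52 at 40 µM, 0.28 at 80 µM, -0.24 between the doses, turn -0.38). Leaving out 1 library gave JUN -0.88 to 2.42 at 40 µM, -3.60 to 2.48 at 80 µM, -3.26 to 0.62 between the doses and -1.46 to 0.63 for the turn. The cause was not tested.

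Over all genes, 368 were called at 40 µM, and 228 without a filter, 834 with DESeq2, 153 with 6 libraries, 183 with the block and 136 to 469 with 1 library left out. Calls between the doses numbered 3674, and 2101 to 4059 with 1 library left out. The turn was called for 47 genes, and for 25 without a filter, 594 with DESeq2, 6 with the block and 10 to 44 with 1 library left out. Genes lower and higher again numbered 14, and 3 without a filter, 31 with DESeq2, 5 with 6 libraries, 5 with the block and 3 to 23 with 1 library left out. Same-numbered libraries did not deviate together (r from -0.139 to 0.0513 in 9 pairs, 0 over 0.1), so the block pairs numbers only. Of 808 refits of 48 results on list genes, 46 lost the call and 0 changed sign. Depth limits EGR2, NR4A3, EGR1 and NR4A2 most, at 0 to 35 counts per library.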
